A study of Mus musculus with 1504 samples.

Results

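General capillary endothelial cells, called gCap cells here, were taken as those endothelial wells of mouse lung that carried reads of Gpihbp1 at 50 CPM or more and of Cd93 at 100 CPM or more. CPM is the reads of a gene in a cell over all reads of that cell, times 1000000. Wells with Ednrb at 100 CPM or more, with at least 2 of the arterial genes Gja5, Gja4, Bmx, Dkk2 and Sema3g at 20 CPM or more, or with Sftpc and Scgb1a1 together at 10000 CPM or more were left out. The rule kept 478 of 769 endothelial wells, a share of 62.2% (exact binomial 95% interval 58.6% to 65.6%, counting error only). The endothelial columns come in 3 sets named EC1, EC2 and EC3, and gCap cells made up 152 of 243, 179 of 275 and 147 of 251 wells of these sets, or 62.6%, 65.1% and 58.6%.

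The study sorted single fluorescent cells from lungs of adult C57BL/6 reporter mice and sequenced full-length cDNA of each well by SMART-seq2, 1504 wells in all. By the labels, 769 wells came from Cldn5(BAC)eGFP mice, 374 from Pdgfrb(BAC)eGFP mice and 361 from mice with both Pdgfrb(BAC)eGFP and NG2dsRed, aged 12 to 15 weeks, while the design text gives 10 to 19 weeks. The 769 endothelial columns are taken as the Cldn5 reporter wells, since that reporter is described as marking endothelium; the 735 Mural columns (128, 233 and 374 wells in Mural1, Mural2 and Mural3) bear no reporter name. Each cell was picked by a reporter driven from an inserted bacterial artificial chromosome, so wells were selected for that promoter's activity; 8 endothelial wells were nonetheless rich in epithelial reads. No animal, plate or sorting date is named. Cells are therefore not replicates, each class counts as 1 sample, and no p-value is given for any difference.

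Capillaries of the mouse lung are lined by general capillary cells and aerocytes. General capillary cells are known for Gpihbp1, Kit and Aplnr, and for giving rise to new capillary cells after injury. Aerocytes, known for Car4 and Ednrb, are broad thin cells spread over the alveolar wall where gas is exchanged. Gpihbp1 holds lipoprotein lipase at the capillary surface, and Cd93 is a C-type lectin-like receptor of endothelium. Kit is the receptor of stem cell factor (Kitl), Aplnr the receptor of the peptide apelin (Apln), and Plvap forms the diaphragms of fenestrae and caveolae.

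In GRCm38 with the GENCODE M21 annotation, the whole gene of Gpihbp1 lies at chr15:75596628-75599481 (plus strand), Cd93 at chr2:148436640-148443563 (minus strand), Kit at chr5:75574916-75656722 (plus strand), Aplnr at chr2:85136225-85139923 (plus strand) and Plvap at chr8:71497765-71511752 (minus strand). Kit is shown by its promoter because it was the only gene of these with a window in the RefSeq promoter table. The rule did not use Kit. The window runs from 250 bases before to 50 bases after a start site of Kit in RefSeq, which lies downstream of the GENCODE start above. It is chr5:75574737-75575036 on the plus strand of GRCm38.p6, 1 of 2 windows the table gives for Kit. Capitals mark the match to the KLF motif CACCC, here on the other strand as GGGTG.

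Kit promoter window: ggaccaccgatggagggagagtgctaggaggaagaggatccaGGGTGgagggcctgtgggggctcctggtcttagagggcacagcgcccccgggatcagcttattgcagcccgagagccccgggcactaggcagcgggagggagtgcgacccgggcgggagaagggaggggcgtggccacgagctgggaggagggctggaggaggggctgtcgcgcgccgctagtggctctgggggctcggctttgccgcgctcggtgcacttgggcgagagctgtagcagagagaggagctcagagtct

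This KLF motif, searched on both strands without overlap with the other motifs, was in 57.5% of the 32851 promoter windows of the table. The ETS motif AGGAAGT (9.35% of windows) and the SOX motif AACAAT (10.7% of windows) were not in this window.

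The cells left out by the rule form 4 classes. Ednrb-high cells (85 wells) had Ednrb past its limit with fewer than 2 arterial genes; arterial-gene cells (111 wells) had at least 2 of the 5 arterial genes; 8 wells were rich in epithelial reads, and 87 wells had too little Gpihbp1 or Cd93 and are called low-marker cells. Most of the limits fell in sparse stretches. The gCap cell nearest the Gpihbp1 limit had 53.0 CPM and the nearest well outside it 35.4 CPM, and 47 of the 59 wells that failed on this limit alone were at 0. For Cd93 the nearest wells were at 135.7 CPM inside and 68.4 CPM outside, and for Ednrb at 86.7 CPM inside and 149.6 CPM outside. The arterial step rests mainly on Gja4 (connexin 37) and the semaphorin Sema3g. Gja4 was at 20 CPM or more in 311 gCap cells (65.1%) and in all 111 arterial-gene cells, and Sema3g in 4.39% of gCap cells and 79.3% of arterial-gene cells. With 1 arterial gene allowed, 336 gCap cells (70.3%) had 1 and 142 (29.7%) had none.

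The label was checked on the markers that the rule did not use. These were higher in gCap cells than in Ednrb-high cells, but close to their levels in arterial-gene cells and, in part, low-marker cells. Kit, the stem cell factor receptor, was at 768, 1049 and 1243 CPM in gCap cells of EC1, EC2 and EC3, against 122, 40.7 and 242 CPM in Ednrb-high cells of the same sets. Plvap, the diaphragm protein, was at 1986, 1898 and 2478 CPM in gCap cells, against 414, 264 and 273 CPM in Ednrb-high cells. Aplnr, the apelin receptor, was at 426, 423 and 312 CPM in gCap cells, against 102, 53.5 and 63.6 CPM in Ednrb-high cells. For all 3 genes every gCap set was above every Ednrb-high set. Over all wells, gCap cells had 1022 CPM of Kit, 2105 CPM of Plvap and 389.6 CPM of Aplnr, close to the 1176, 1991 and 343 CPM of arterial-gene cells. Low-marker cells had 552 CPM of Kit, 1719 CPM of Plvap and 246 CPM of Aplnr, and their sets overlapped the gCap sets for Kit and Plvap.

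Shares of cells were taken at an equal depth of 50000 reads drawn from every cell. Plvap was read in 96.0% of gCap cells and 29.4% of Ednrb-high cells. Kit was read in 81.4% of gCap cells and 20.0% of Ednrb-high cells, and Aplnr in 32.6% of gCap cells and 5.88% of Ednrb-high cells. Of the 478 gCap cells, 130 (27.2%) carried reads of Kit, Aplnr and Plvap together, 270 carried 2 of them, 74 carried 1 and 4 carried none. The rule's own genes stood as the limits set them. Gpihbp1 was at 1692 CPM in gCap cells and 376 CPM in Ednrb-high cells, Cd93 at 4179 CPM in gCap cells and 564 CPM in Ednrb-high cells, and Ednrb at 1.36 CPM in gCap cells and 2564 CPM in Ednrb-high cells. CPM is not divided by gene length here, so levels are compared between cell classes and not between genes.

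**Figure D1:**
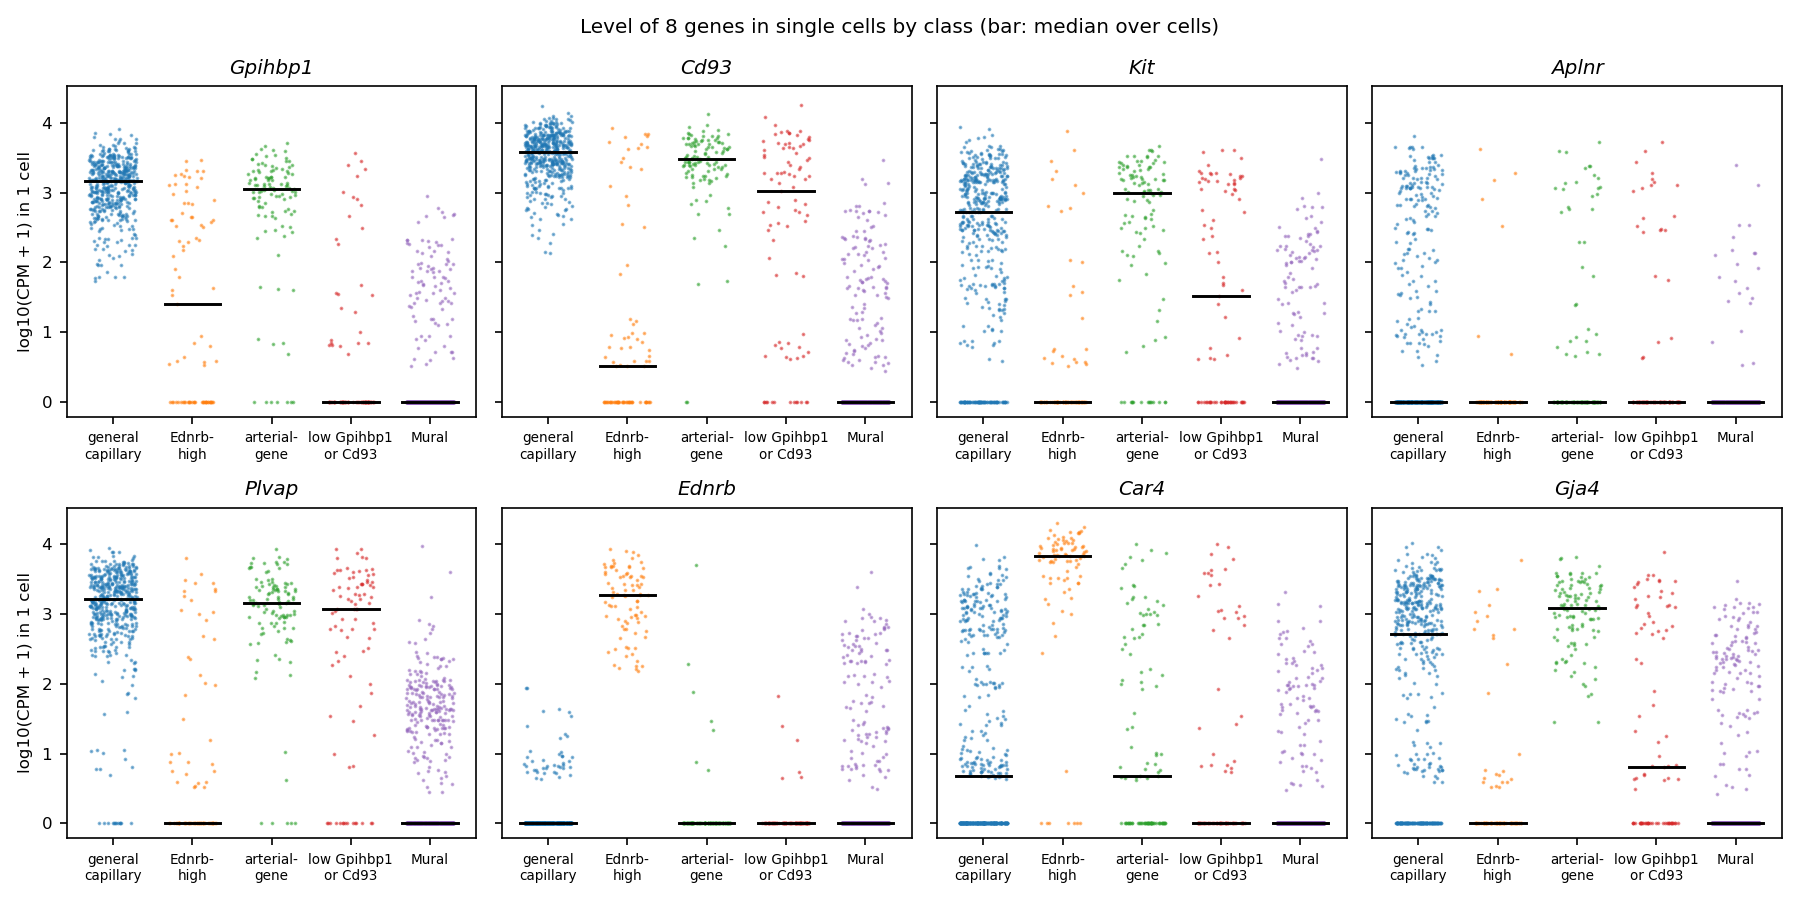
Level per cell of 8 genes, as log10(CPM + 1), in gCap cells, Ednrb-high cells, arterial-gene cells, low-marker cells and Mural cells; each point is 1 cell and the bar is the median, and the 8 epithelial-rich wells are not drawn. Kit and Plvap run high in gCap and arterial-gene cells, while Ednrb and Car4 run high in Ednrb-high cells; summed over cells, Car4 was at 492 CPM in gCap cells and 7726 CPM in Ednrb-high cells.

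Reads per cell ran between 102069 and 415018 in gCap cells, with a median of 192066. Medians were 297964 in Ednrb-high cells, 198240 in arterial-gene cells and 319870 in Mural cells. At 50000 reads a cell, the median number of genes was 1583 in gCap cells, 2074 in Ednrb-high cells, 1603 in arterial-gene cells and 3329 in Mural cells. No columns were identical. Markers of cell types other than endothelium were low in gCap cells. The 12 endothelial markers summed to 28280 CPM. The sums for the whole lists were 106 CPM for pericyte, 156 CPM for smooth muscle and 75.2 CPM for fibroblast genes. They were 319 CPM for alveolar epithelial, 289 CPM for airway epithelial and 69.8 CPM for leukocyte genes. The rule capped Sftpc of the alveolar list and Scgb1a1 of the airway list. Of 10 erythroid and platelet genes only 7 were measured, Hba-a1, Hba-a2 and Hbb-bt not among them, and these 7 summed to 8.49 CPM. Lists of other endothelial types had higher sums in gCap cells. Arterial genes summed to 2476 CPM, venous genes to 1354 CPM and aerocyte genes to 1210 CPM. In other endothelial wells these sums were 1936, 782 and 10195.5 CPM. The rule used Ednrb of the aerocyte list and 5 genes of the arterial list. Lymphatic genes summed to 605 CPM, most of it Lyve1. Prox1, the transcription factor that defines lymphatic endothelium, was at 0.989 CPM. A sign of doublets was reads of at least 5 endothelial and at least 5 pericyte, smooth muscle or fibroblast markers in 1 well. It was found in 3 gCap cells (0.628%) and in 78 Mural cells (10.6%). Epithelial and leukocyte markers were not counted for it. The highest single gCap cell had 12468 CPM of the alveolar list, and the highest for the leukocyte list had 14572 CPM.

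The genes that took the most reads in gCap cells, outside ribosomal, mitochondrial and predicted genes, were the nuclear RNA Malat1 (14914 CPM), the tight junction claudin Cldn5 (10097 CPM), the membrane protein Itm2b (9014 CPM) and the fatty acid receptor Cd36 (7259.9 CPM). They were followed by Ly6e (6976 CPM), the MHC class I light chain B2m (6569 CPM), Tspan7 (6232 CPM), Ly6a (5872 CPM), the hypoxia-inducible factor Epas1 (5742 CPM) and the adhesion receptor Gpr116 (4803 CPM). In all, 4201 genes reached 50 CPM, but few of them were seen cell by cell. Of these 4201 genes, 57 were read in at least 90% of gCap cells at 50000 reads and 294 in fewer than 10%.

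Against Ednrb-high cells, the class that holds the aerocyte genes, gCap cells differed in many named genes, among them receptors, ligands and MHC class II genes. The comparison covered genes at 50 CPM or more and with a read in at least 25% of cells on the higher side, and a gene was called at a fold of at least 2 in CPM of summed reads. Of 2282 genes that met the level, 246 (10.8%) were higher and 283 (12.4%) were lower in gCap cells, 529 (23.2%) in all. The median log2 fold over all 2282 genes was -0.09. In 226 of the 246 higher genes and 246 of the 283 lower ones the 3 gCap sets and the 3 Ednrb-high sets did not overlap, where such separation was found in 19.4% of all tested genes upward and 20.1% downward. With TMM factors in place of total reads the split became 156 higher and 421 lower, and with median-ratio factors 147 and 448. Ednrb, Gpihbp1 and Cd93 separate these classes by rule, and the other genes belong to the cells so chosen, so the contrast is a description.

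**Figure D2:**
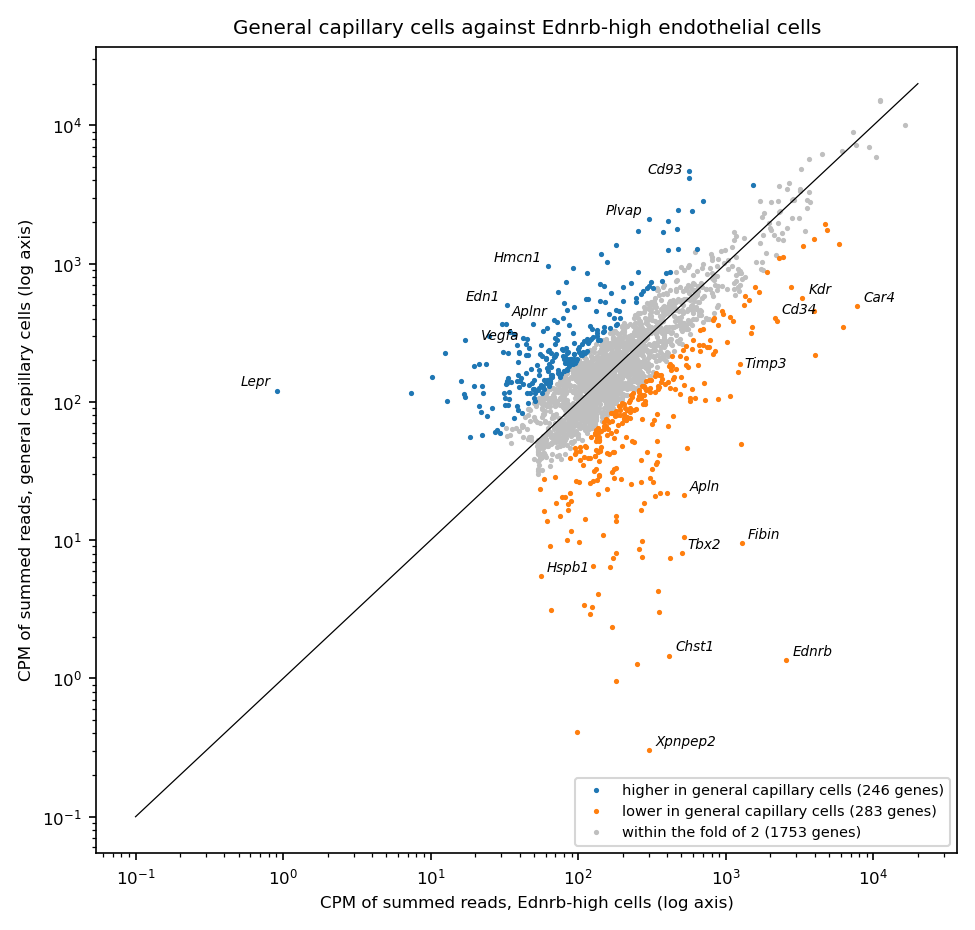
CPM of summed reads in gCap cells (vertical log axis) against Ednrb-high cells (horizontal log axis) for the 2282 genes that met the level; each point is 1 gene and the line marks equal levels. Lepr lies far above the line at 121 CPM in gCap cells and 0.904 CPM in Ednrb-high cells, and Ednrb and Chst1 far below it.

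The aerocyte list held Ednrb, which the rule used, and 9 other genes. Of these 9 genes, 8 met the level and all 8 were lower in gCap cells (median log2 fold -4.41). Car4, a carbonic anhydrase of the cell surface, was at 666, 563 and 232 CPM in gCap cells of EC1, EC2 and EC3, against 7459.8, 7186 and 8165 CPM in Ednrb-high cells, 15.7-fold lower (95% counting interval 15.5 to 15.9), and was read in 42.9% of gCap cells and 91.8% of Ednrb-high cells. The membrane protein Emp2 was at 219.7, 286 and 133 CPM in gCap cells, against 4274, 3498 and 4254 CPM in Ednrb-high cells. The secreted Igfbp7 was at 302, 279 and 484 CPM in gCap cells, against 6328, 5788 and 6383 CPM in Ednrb-high cells. All 3 genes were low in every gCap set and high in every Ednrb-high set, with folds of 18.5 for Emp2 and 17.7 for Igfbp7. The T-box factor Tbx2 was at 5.29, 13.7 and 3.83 CPM in gCap cells, against 497, 479.5 and 516 CPM in Ednrb-high cells, a 62.5-fold difference that was 49.2 without EC3 and 112 without EC2. Its relative Tbx3 was lower by a factor of 3.65, at 223 CPM in gCap cells and 815 CPM in Ednrb-high cells. The periaxin gene Prx was at 107 CPM in gCap cells and 573 CPM in Ednrb-high cells.

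Several of the largest folds belonged to genes nearly silent in gCap cells. The sulfotransferase Chst1 was at 1.46 CPM in gCap cells and 410.2 CPM in Ednrb-high cells, 280.4-fold lower (counting interval 237 to 334). The secreted Fibin was at 0.102, 24.8 and 0.170 CPM in gCap cells of the 3 sets, against 718, 1507 and 1378 CPM in Ednrb-high cells. Nearly all its gCap reads were in EC2, and the fold of 135 was 86.8 without EC3 and 8733 without EC2. The aminopeptidase Xpnpep2 was at 0.305 CPM in gCap cells, against 29.8, 359 and 381 CPM in Ednrb-high cells of the 3 sets. Its fold of 990.3 was 738 without EC3 and 1822 without EC2, and without EC3 too few Ednrb-high cells had a read for the gene to be called. Others among the 10 largest were the procollagen enhancer Pcolce2 (199-fold lower), Fndc1 (239.8-fold lower), and, with folds that leaving out 1 column set moved by more than 1.5 times, Rasa4, Egflam, Frrs1 and Dpysl5. For Rasa4, a Ras GTPase-activating protein, the fold of 187 was 148 without EC1 and 546 without EC2. For the matrix protein Egflam the fold of 117 was 63.0 without EC2 and 215 without EC1. For Frrs1 the fold of 81.4 was 54.3 without EC1 and 374 without EC2, and for Dpysl5 the fold of 71.5 was 46.0 without EC3 and 175 without EC2.

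Genes of growth factor pathways lay on both sides, receptors and ligands alike. Of 15 genes of the list that met the level, Kit, Aplnr, Tek, Tie1, Insr and Vegfa, 6 in all, were higher, and Kitl, Apln, Kdr, Nrp1 and Fgfr3, 5 in all, were lower in gCap cells (median log2 fold 0.34). Of the Kit pair, the receptor Kit was 6.52-fold higher in gCap cells, a fold that was 4.86 without EC2 and 12.5 without EC3. The ligand Kitl was at 235, 394 and 298 CPM in gCap cells, against 1289.7, 1177 and 1741 CPM in Ednrb-high cells, 4.69-fold lower (counting interval 4.62 to 4.77). Receptor and ligand were thus each high in a different capillary class, and the gCap sets and the Ednrb-high sets did not overlap for either gene. Of the apelin pair, the receptor Aplnr was 5.70-fold higher in gCap cells. Its ligand Apln was at 0.644, 35.9 and 24.1 CPM in gCap cells, against 323, 304 and 729 CPM in Ednrb-high cells, 24.3-fold lower, and the fold was 15.6 without EC3 and 49.2 without EC2. Every gCap set was below every Ednrb-high set.

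Among VEGF genes, Vegfa was higher and Kdr and Nrp1 were lower in gCap cells, while the receptors Flt1, at 523 CPM in gCap cells and 413 CPM in Ednrb-high cells, and Flt4, at 126 CPM in gCap cells and 174 CPM in Ednrb-high cells, lay within the fold of 2. Nrp2, Vegfb and Vegfc were read in too few cells to meet the level. Vegfa was at 245, 231 and 316 CPM in gCap cells, against 84.5, 62.8 and 16.3 CPM in Ednrb-high cells, 5.91-fold higher, a fold that was 3.32 without EC3 and 7.94 without EC1. The main VEGF receptor Kdr was at 561, 544 and 599 CPM in gCap cells, against 3189, 4087 and 2844 CPM in Ednrb-high cells, 5.80-fold lower (counting interval 5.74 to 5.87). The co-receptor Nrp1 was 2.66-fold lower, at 1500.4 CPM in gCap cells and 3984 CPM in Ednrb-high cells. The angiopoietin receptor Tek was at 2490.1, 2755 and 2044 CPM in gCap cells, against 629.7, 549.7 and 358 CPM in Ednrb-high cells, 5.20-fold higher. None of these genes overlapped between the sets of gCap and Ednrb-high cells. Tie1, the partner of Tek, passed only narrowly, at 870.5 CPM in gCap cells and 418 CPM in Ednrb-high cells, and its fold of 2.08 fell under the limit with TMM factors, with median-ratio factors, with cells weighted equally and without EC3. The fibroblast growth factor receptor Fgfr3 was lower in gCap cells, at 38.2 CPM against 265 CPM in Ednrb-high cells. Its fold of 6.95 was 4.99 without EC1 and 11.1 without EC2. The receptor tyrosine phosphatase Ptprb, a regulator of Tek, was 8.21-fold higher, at 4654 CPM in gCap cells and 567 CPM in Ednrb-high cells.

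Genes of antigen presentation differed in 1 direction. Of 13 that met the level, 6 were higher and none lower in gCap cells (median log2 fold 1.00, against -0.09 over all genes tested). Of all genes tested, 10.8% were higher and 12.4% lower. The invariant chain Cd74, which escorts MHC class II, was at 3544, 1756 and 894 CPM in gCap cells of EC1, EC2 and EC3, against 866, 653 and 58.4 CPM in Ednrb-high cells, 5.07-fold higher (counting interval 4.97 to 5.17). Each gCap set was above the Ednrb-high cells of all sets, EC3 by the least. The class II beta chain H2-Ab1 was at 2027, 1262 and 801 CPM in gCap cells, against 452, 257 and 18.3 CPM in Ednrb-high cells, and its fold of 7.57 was 4.78 without EC3 and 9.71 without EC1. The alpha chain H2-Aa was at 1420.2, 774 and 625 CPM in gCap cells, against 150.4, 204 and 0.0797 CPM in Ednrb-high cells, with a fold of 10.1 that was 5.84 without EC3 and 23.1 without EC2. H2-Eb1 was at 554 CPM in gCap cells and 112 CPM in Ednrb-high cells. For H2-DMb1 the fold of 7.90 was 4.4 without EC3 and 136 without EC2, and it was not called without EC1. Class I genes lay within the fold of 2. H2-D1 was at 2872 CPM in gCap cells and 2917 CPM in Ednrb-high cells, and H2-K1 at 3813 CPM in gCap cells and 2694 CPM in Ednrb-high cells; class I genes have near-identical copies between which the counting may have split reads. The leukocyte markers, among them Ptprc, summed to 69.8 CPM in gCap cells and 10.1 CPM in Ednrb-high cells. Ptprc itself, the CD45 antigen of all leukocytes, was at 21.2 CPM in gCap cells.

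In the interferon list 5 of 9 genes were higher and none lower in gCap cells (median log2 fold 1.02). The membrane restriction factor Ifitm3 was at 2075, 1532 and 1783 CPM in gCap cells, against 585, 485 and 406 CPM in Ednrb-high cells, 3.81-fold higher. The guanylate-binding genes Gbp4 (2.39-fold) and Gbp2 (2.34-fold) passed on total reads, but not with TMM or median-ratio factors, and Gbp2 also not without EC3. The GTPase Iigp1 was at 186 CPM in gCap cells and 23.7 CPM in Ednrb-high cells, with a fold of 7.87 that was 4.70 without EC3 and 33.2 without EC2. Without EC2 too few gCap cells had an Iigp1 read for a call.

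Among 18 endothelial transcription factors that met the level, 6 were higher and 2, Tbx2 and Tbx3, lower (median log2 fold 0.68). Sox17, an arterial and angiogenic SOX factor, was at 246, 298 and 387 CPM in gCap cells, against 64.3, 32.0 and 27.6 CPM in Ednrb-high cells, 8.48-fold higher (counting interval 7.94 to 9.06). Hey1, a target of Notch signalling, was at 294, 235 and 379.8 CPM in gCap cells, against 0.191, 57.5 and 15.1 CPM in Ednrb-high cells. Hey1 reads of Ednrb-high cells came mostly from EC2, and the fold of 12.0 was 7.64 without EC3 and 31.6 without EC2. The forkhead factors Foxp1 (3.44-fold) and Foxo1 (3.61-fold) were higher too, the fold of Foxo1 being 2.95 without EC2 and 5.64 without EC3. Foxf1, a factor needed for lung capillaries, was within the fold of 2, at 506 CPM in gCap cells and 885 CPM in Ednrb-high cells. The Notch list had 2 of 6 genes higher, Hey1 and the receptor Notch4, and the glycosyltransferase Mfng lower (median log2 fold 0.45). Notch4, at 2.11-fold, was under the limit with TMM factors, with median-ratio factors and without EC3.

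Some genes of arterial and venous character were among the higher ones. Vwf, the clotting glycoprotein von Willebrand factor known from veins and large vessels, was at 933, 714 and 561 CPM in gCap cells, against 166, 57.3 and 62.3 CPM in Ednrb-high cells, 8.95-fold higher. The vasoconstrictor peptide gene Edn1 was at 478, 527 and 498 CPM in gCap cells, against 74.4, 31.5 and 15.9 CPM in Ednrb-high cells. Its fold of 15.4 was 10.3 without EC3 and 23.6 without EC1, while its receptor gene Ednrb, which the rule used, was on the other side. Every gCap set lay above every Ednrb-high set for Vwf and for Edn1. Of 10 arterial markers 4 met the level, and Gja4, Efnb2 and Hey1 were higher; of 10 venous markers only Vwf, Ephb4 and Lepr met it, and all 3 were higher. The rule used Gja4, and without its 5 arterial genes 2 of 3 markers were higher (median log2 fold 1.06). Gja4, at 1481, 903 and 1204 CPM in gCap cells and 108, 309.8 and 54.2 CPM in Ednrb-high cells, had a fold of 8.27 that was 5.10 without EC3 and 19.1 without EC2. Ephb4, the ephrin receptor of veins, was at 402 CPM in gCap cells and 79.2 CPM in Ednrb-high cells. The leptin receptor Lepr had the largest fold of all higher genes. It was at 95.0, 151 and 109 CPM in gCap cells, against 0.574, 0.915 and 1.04 CPM in Ednrb-high cells, 134-fold higher (counting interval 89.0 to 211), and was read in 28.9% of gCap cells and 5.88% of Ednrb-high cells. In the haemostasis list 3 of 11 genes were higher, Vwf, Edn1 and the nucleotidase Entpd1, and 1 lower, the thrombin receptor F2r (median log2 fold 0.42). Entpd1, at 325 CPM in gCap cells and 57.8 CPM in Ednrb-high cells, had a fold of 5.63 that was 3.02 without EC3 and 13.8 without EC2, and F2r, at 2.15-fold, was no longer called without EC3.

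Secreted signals other than growth factors included the chemokine Cxcl12, at 732, 882 and 926 CPM in gCap cells, against 247, 42.2 and 104 CPM in Ednrb-high cells. Its fold of 7.39 was 5.67 without EC2 and 11.2 without EC1, and the sets did not overlap. The membrane-bound chemokine Cx3cl1 was 5.56-fold lower, at 78.9 CPM in gCap cells and 438 CPM in Ednrb-high cells. The chemokine list had 3 genes higher and 2 lower of 9 (median log2 fold 0.34). The scavenging receptors stood apart from each other: Ackr2 was 3.06-fold lower in gCap cells, and Ackr3 2.52-fold higher with all sets but under the limit without EC3, at 1.59-fold. The guidance list had 3 higher and 5 lower of 14 (median log2 fold 0.14). Sema3c, a secreted semaphorin, was at 2251, 2636 and 2215 CPM in gCap cells, against 482, 626 and 615 CPM in Ednrb-high cells, 4.04-fold higher. The axon guidance ligand Ntn1, among the 10 largest folds, was at 282 CPM in gCap cells and 17.2 CPM in Ednrb-high cells, with a fold of 16.4 that was 10.9 without EC3 and 27.9 without EC2. The bone morphogenetic protein gene Bmp6 was 3.81-fold higher, and of 11 genes of BMP and TGF-beta signalling it and Id2 were called higher, none lower (median log2 fold 0.05). Id2, at 2.29-fold, was under the limit with TMM factors, with median-ratio factors and without EC2.

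Adhesion, surface and matrix genes were mixed. Junction and adhesion genes had 4 higher and 3 lower of 17 (median log2 fold -0.13), and genes of caveolae and the apical surface 1 higher, Plvap, and 5 lower of 17 (median log2 fold -0.27). The laminin receptor chain Itga6 was at 493, 461 and 494 CPM in gCap cells, against 201, 91.4 and 49.7 CPM in Ednrb-high cells, 5.15-fold higher. The leukocyte adhesion molecule Icam1 was at 509, 241 and 309 CPM in gCap cells, against 1689, 947 and 1778 CPM in Ednrb-high cells, 4.37-fold lower, and Icam2 was 2.50-fold lower. The sialomucin Cd34 was at 331, 334 and 563 CPM in gCap cells, against 1998, 2265 and 2129 CPM in Ednrb-high cells, 5.30-fold lower. The integrin chain was thus high in gCap cells and both surface ligands of leukocytes low, with no overlap of sets. Of 10 basement membrane genes, 3 were higher and 2 lower (median log2 fold 0.24). The protease inhibitor Timp3 was at 72.6, 179 and 239.6 CPM in gCap cells, against 899, 913 and 1515 CPM in Ednrb-high cells, 7.33-fold lower. The collagen-binding Sparc was 2.66-fold higher, at 1271 CPM in gCap cells and 478 CPM in Ednrb-high cells. Its relative Sparcl1, at 446, 261 and 419 CPM in gCap cells and 25.2, 78.3 and 3.50 CPM in Ednrb-high cells, varied more, with a fold of 12.1 that was 6.07 without EC3 and 43.7 without EC2. The matrix gene Hmcn1 was 15.5-fold higher, at 1035, 1101 and 732 CPM in gCap cells, against 84.5, 76.5 and 44.0 CPM in Ednrb-high cells.

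Other genes among the 10 largest folds upward were the anthrax toxin receptor Antxr2 (18.0-fold; without EC1 too few cells had a read for a call), Cmtm8 (14.9-fold), Irf2bp2 (15.8-fold, which was 12.9 without EC2 and 31.5 without EC3) and Frmd4a (11.3-fold, which was 6.77 without EC3 and 61.2 without EC2). Of lipid genes other than Gpihbp1, which the rule used, 5 met the level, and the lipase Lpl was the 1 higher, with none lower (median log2 fold 0.03). Lpl was at 321, 397 and 348 CPM in gCap cells, against 135, 132 and 38.8 CPM in Ednrb-high cells, and its fold of 4.14 was 2.73 without EC3 and 5.06 without EC1. Cd36 was level, at 7259.9 CPM in gCap cells and 7563 CPM in Ednrb-high cells. The adrenomedullin receptor pair was level too, with Calcrl at 3468 CPM in gCap cells and 3199 CPM in Ednrb-high cells, and Ramp2 at 3299 CPM in gCap cells and 3671 CPM in Ednrb-high cells. Of 8 vasoactive receptors other than Ednrb, the natriuretic peptide receptor Npr3 was higher (7.46-fold, which was 5.93 without EC1 and 17.1 without EC3), and S1pr4 lower (median log2 fold 0.29); S1pr4, at 2.13-fold, was no longer called without EC1 or without EC2. WNT genes were 2 higher and 2 lower of 4 (median log2 fold 0.12), and channels and transporters 3 higher and 1 lower of 7 (median log2 fold -0.52). The flippase Atp8a1 was the 1 lower, at 233 CPM in gCap cells and 847 CPM in Ednrb-high cells. Of 16 proliferation genes none met the level; Mki67, read in dividing cells, was at 4.60 CPM in gCap cells and 7.47 CPM in Ednrb-high cells. Of 6 immediate early and heat shock genes that met it, the chaperone Hspb1 was lower (10.1-fold; not called without EC1) and none higher (median log2 fold -0.61).

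**Figure D3:**
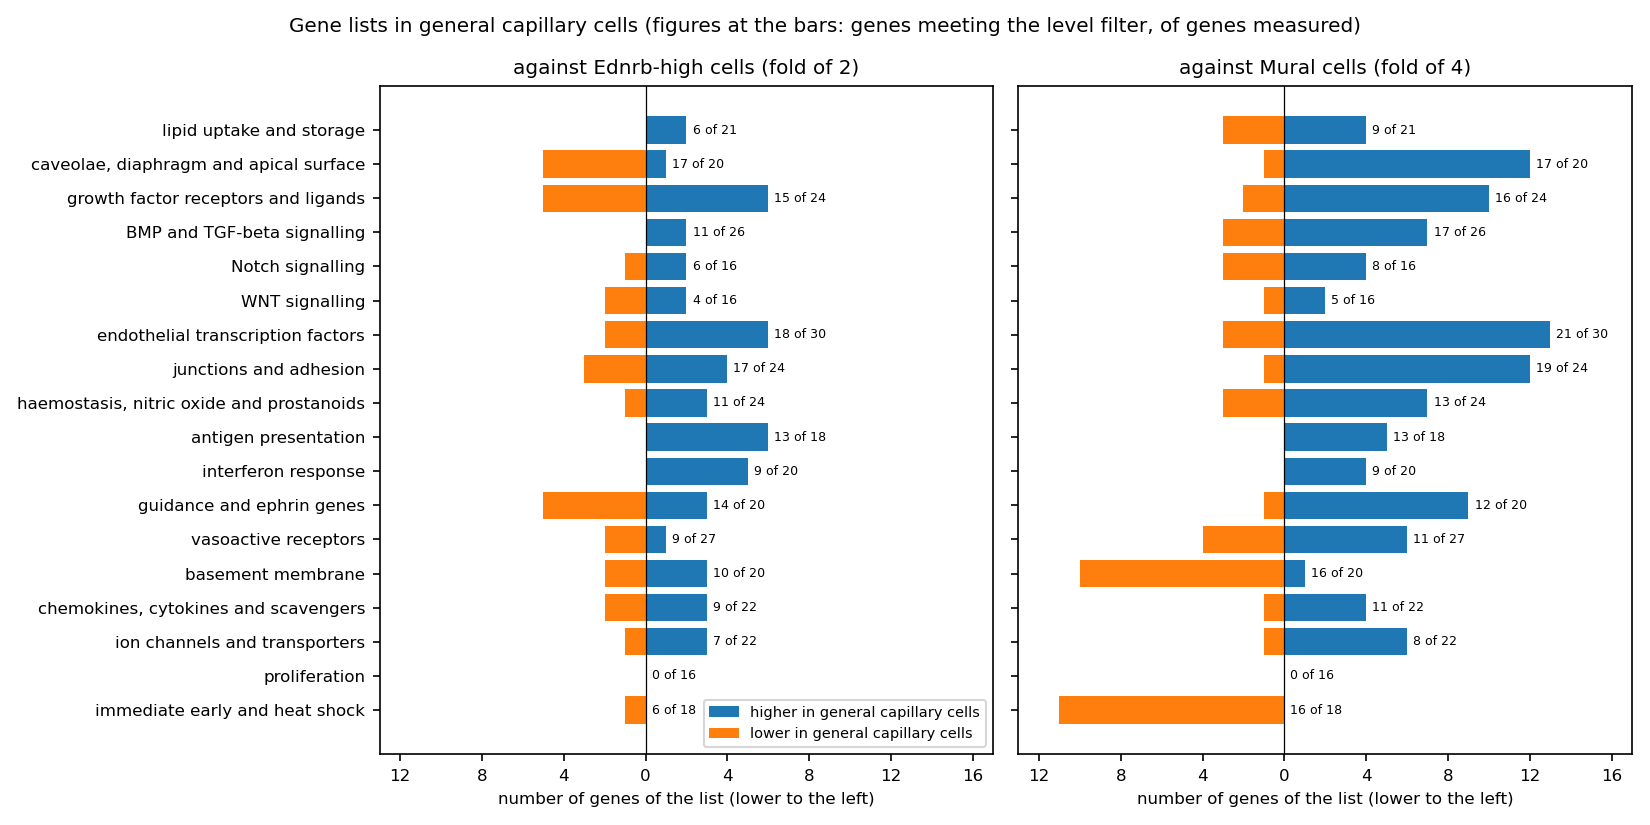
Numbers of genes of each of 18 lists that were higher or lower in gCap cells, against Ednrb-high cells (fold of at least 2) and against Mural cells (fold of at least 4), with the number meeting the level of those measured beside each bar pair, Gpihbp1 of the lipid list, Ednrb of the vasoactive list and Sema3g of the guidance list, all used by the rule, included. Antigen presentation and interferon genes have no lower member in either panel, and immediate early genes have no higher member in either.

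gCap cells and arterial-gene cells were close. Of 1756 genes that met the level, 15 (0.854%) were higher and 16 (0.911%) lower in gCap cells, 31 (1.77%) in all (median log2 fold -0.03); the split was 11 and 20 with TMM factors, and 10 and 21 with median-ratio factors. In 10 of the 15 and 15 of the 16 the sets did not overlap, where 3.59% of all tested genes were apart upward and 5.35% downward. Leaving out EC1, EC2 or EC3 changed the count of 31 to 97, 69 and 83, of which 21, 17 and 20 were among the 31. Of all 18 lists only Sema3g and the TGF-beta binding protein Ltbp4 were called, both lower. Sema3g, which the rule used, was at 0.407, 33.9 and 48.2 CPM in gCap cells, against 278, 202 and 300.4 CPM in arterial-gene cells. Ltbp4 was at 83.8, 68.3 and 80.1 CPM in gCap cells, against 200.0, 311 and 213 CPM in arterial-gene cells, 3.12-fold lower (counting interval 3.01 to 3.23); without EC2 too few cells had a read for a call. All its gCap sets were below the arterial-gene sets. The actin regulator Coro1b was at 83.4, 74.2 and 66.7 CPM in gCap cells, against 176, 210.1 and 190.2 CPM in arterial-gene cells, 2.57-fold lower, also without overlap.

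The higher genes against arterial-gene cells had small folds. The largest was Phactr1, an actin and phosphatase regulator, at 199, 160.3 and 189 CPM in gCap cells, against 74.1, 43.2 and 73.9 CPM in arterial-gene cells, 2.82-fold higher. The tyrosine phosphatase Ptprg was at 331, 367 and 343 CPM in gCap cells, against 212, 127 and 86.9 CPM in arterial-gene cells, 2.45-fold higher. Both genes, and Ankrd17 at 2.56-fold, were called with each column set left out, and their sets did not overlap. The other 7 of the 10 largest upward folds (Smarcc2, Iqsec1, Cep350, Metap2, Lrrc32, Camk2d and Surf4) and 7 more of the 10 downward (Snrpe, Fam134a, Nlgn2, Mapk9, Ppp2r2a, Rab11b and Mia3) were each lost when at least 1 set was left out. For Smarcc2, Iqsec1, Metap2 and Ppp2r2a that also moved the fold by more than 1.5 times: Smarcc2 to 4.45 without EC1, Iqsec1 to 4.28 without EC1, Metap2 to 3.67 without EC1 and Ppp2r2a to 3.65 lower without EC1. Gja5 (connexin 40) and Bmx, arterial genes that the rule used, were read in too few cells to meet the level. Gja5 was at 2.89 CPM in gCap cells and 108 CPM in arterial-gene cells, and Bmx at 5.84 CPM in gCap cells and 67.1 CPM in arterial-gene cells. Cd74 was at 2044 CPM in gCap cells and 1839.6 CPM in arterial-gene cells, Edn1 at 503 CPM in gCap cells and 565 CPM in arterial-gene cells, and Vwf at 735 CPM in gCap cells and 616 CPM in arterial-gene cells.

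Set against all 291 other endothelial wells together, 15 of 1923 genes (0.78%) were higher in gCap cells and 62 (3.22%) lower, 77 (4%) in all (median log2 fold 0.01). The sets did not overlap in 13 of the 15 and 61 of the 62, beside 12.8% of all tested genes apart upward and 12.5% downward. The rule's genes Gpihbp1 (2.60-fold), Cd93 (2.14-fold) and Ednrb were among them. Of the higher genes outside the rule, Sparcl1 had the largest fold (2.66-fold, counting interval 2.60 to 2.72). It was at 446, 261 and 419 CPM in gCap cells, against 134, 201 and 91.5 CPM in other endothelial wells, with every gCap set above every other. Next came Marveld1, Dennd6a, Ncald, Smarcc2, Zdhhc17, Plekho1 and Etl4. All of these but Marveld1 lost the call when at least 1 column set was left out, and Marveld1 lost it with cells weighted equally. Without EC3, 12 of the 33 named genes of this comparison were no longer called. Lower genes outside the rule included several of the aerocyte list, among them Emp2 (8.01-fold), Igfbp7 (7.89-fold) and Car4 (6.80-fold). The lymphatic growth factor receptor Flt4 was also lower, at 122, 98.5 and 162 CPM in gCap cells, against 365, 418 and 435 CPM in other endothelial wells (3.26-fold). The lymphatic marker list summed to 605 CPM in gCap cells, 459 CPM of it Lyve1, and to 4679 CPM in low-marker cells. The surfactant gene Sftpc and the club cell gene Scgb1a1, used by the rule, were lower by 21.1 and 35.9 times with all wells, but not without the 8 epithelial-rich wells, where their log2 folds were 0.43 and 0.13. The count of 77 became 129 without EC1, 118 without EC2 and 62 without EC3, of which 70, 65 and 45 were among the 77.

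Against the Mural wells, a fold of at least 4 was asked. Endothelial and Mural wells are in separate column sets and are taken to come from different reporter mice. Cell class, animal and preparation can therefore not be told apart in this contrast. Of 3171 genes that met the level, 395 (12.5%) were higher and 613 (19.3%) lower in gCap cells, 1008 (31.8%) in all (median log2 fold -0.21; TMM and median-ratio factors lowered all folds by 0.22 and 0.19 on the log2 scale). All 395 higher genes and 601 of the 613 lower ones were apart in every set, beside 29.7% and 36.3% of all tested genes. The Mural wells were of mixed content. Fibroblast markers summed to 75.2 CPM in gCap cells and 48359 CPM in Mural wells (25075 to 62578 CPM by set), with all 10 lower in gCap cells. Pericyte markers summed to 106 CPM in gCap cells and 2394 CPM in Mural wells (527 to 5260.5 CPM by set), and smooth muscle markers to 156 CPM in gCap cells and 5768 CPM in Mural wells (343 to 15985 CPM by set). Alveolar epithelial markers summed to 319 CPM in gCap cells and 17102 CPM in Mural wells (2923 to 47714 CPM by set). The part of this mixed content in the differences was not tested beyond leaving out wells. Leaving out Mural wells rich in Sftpc and Scgb1a1 kept all 84 named genes past the fold and moved 20 of the folds by more than 1.5 times. Without the doublet-like cells of both classes all 84 were also kept, and 29 of the folds moved by more than 1.5 times.

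Endothelial identity genes had the largest upward folds. Of 12 endothelial markers 11 met the level and all 11 were higher (median log2 fold 6.29), and the 12 summed to 28280 CPM in gCap cells and 386 CPM in Mural wells. Cldn5, whose promoter drives the sorted reporter, was at 12807, 8279.8 and 9607 CPM in gCap cells of EC1, EC2 and EC3, against 35.9, 64.7 and 9.42 CPM in Mural1, Mural2 and Mural3, 361-fold higher; the fold was 188 without Mural3 and 668 without Mural2. The endothelial cadherin Cdh5 was at 2305, 2305 and 2533 CPM in gCap cells, against 22.2, 36.5 and 6.54 CPM in Mural wells. Its fold of 141 was 76.5 without Mural3 and 239.5 without Mural2. For both genes CPM was lowest in Mural3 and highest in Mural2, and leaving out Mural3 moved 49 of the 84 named folds by more than 1.5 times. Of the markers outside the rule, Aplnr was 67.6-fold higher (31.9 without Mural3 and 107 without Mural1), Kit 61.0-fold (29.2 without Mural3 and 117 without Mural2) and Plvap 56.0-fold (31.3 without Mural3 and 83.9 without Mural1). Gpihbp1 and Cd93, for which gCap cells were chosen, were 174-fold (96.9 without Mural3 and 319 without Mural2) and 187-fold higher (95.4 without Mural3 and 294 without Mural2). Sox17 was 130.3-fold higher (73.0 without Mural3 and 312 without Mural2) and Tie1 106-fold (60.0 without Mural3 and 162 without Mural2).

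Genes of metabolism and signalling that set gCap cells apart from Mural wells included Cd36, at 6809.9, 7252 and 7719.5 CPM in gCap cells, against 119, 568 and 95.0 CPM in Mural wells, 32.8-fold higher (18.3 without Mural3 and 72.5 without Mural2). Hpgd, the enzyme that breaks down prostaglandins, was at 3482, 3824 and 3556 CPM in gCap cells, against 25.4, 101 and 27.1 CPM in Mural wells (79.1-fold; 50.3 without Mural3 and 136 without Mural2), and the prostaglandin transporter Slco2a1 was 62.0-fold higher (42.0 without Mural3 and 95.5 without Mural2). Bmp6 was 102-fold higher (51.0 without Mural3 and 152 without Mural2), its type II receptor Bmpr2 20.6-fold and the BMP target Tmem100 23.9-fold, with 7 higher and 3 lower of 17 genes of BMP and TGF-beta signalling (median log2 fold 0.09). Of 13 antigen presentation genes 5 were higher and none lower (median log2 fold 1.83), but Cd74 was not among them, at 2044 CPM in gCap cells, against 164, 3138 and 569 CPM in Mural1, Mural2 and Mural3. The interferon list had 4 of 9 higher (median log2 fold 1.95), caveolar and apical genes 12 higher and 1 lower of 17 (3.28), guidance genes 9 and 1 of 12 (3.55), junction genes 12 and 1 of 19 (3.20), growth factor genes 10 and 2 of 16 (3.94), and transcription factors 13 and 3 of 21 (2.92). The haemostasis list had 7 higher and 3 lower of 13 (3.10), vasoactive receptors 6 and 4 of 11 (2.76), channels 6 and 1 of 8 (3.35), Notch genes 4 and 3 of 8 (1.31), lipid genes other than Gpihbp1 3 and 3 of 8 (-0.65), chemokines 4 and 1 of 11 (0.54) and WNT genes 2 and 1 of 5 (0.53).

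Lists of lower genes were those of matrix and of the early response. Of 16 basement membrane genes that met the level, 10 were lower and 1, the laminin chain Lama5, higher in gCap cells (median log2 fold -3.12). Timp3 was at 72.6, 179 and 239.6 CPM in gCap cells, against 3475, 2303 and 3427 CPM in Mural wells, 19.1-fold lower. Sparc was at 862, 1277 and 1673 CPM in gCap cells, against 11511, 5207 and 9893 CPM in Mural wells, 7.03-fold lower. Both lay below every Mural set. Lama5 was at 187, 246 and 308 CPM in gCap cells, against 61.5, 78.9 and 10.9 CPM in Mural wells, and its fold of 6.73 was 3.41 without Mural3 and 11.3 without Mural2, so that without Mural3 it was not called. Of 16 immediate early and heat shock genes 11 were lower and none higher (median log2 fold -4.39). Fos, a factor induced soon after stimulation, was at 24.8, 37.2 and 11.4 CPM in gCap cells, against 2050.4, 3099 and 3167 CPM in Mural wells, 117-fold lower (counting interval 113 to 122). Egr1 was at 17.1, 10.7 and 11.7 CPM in gCap cells, against 1123, 1809 and 3633 CPM in Mural wells, 213-fold lower (119 without Mural3 and 248 without EC1). Jun was not called, at 453 CPM in gCap cells and 685 CPM in Mural wells. The 3 endothelial sets were low and the 3 Mural sets high for Fos and Egr1. Fos was also low in Ednrb-high cells, at 7.31 CPM. For these early response genes too, cell class and preparation cannot be told apart.

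Genes with next to no reads in gCap cells had the largest downward folds. The complement protease C1s1 had 1 read over all gCap cells and was at 664, 553 and 1595 CPM in the Mural sets, and Ccdc80 also had 1 read, against 1323 CPM in Mural wells. Rarres2 and Rbp4, which encode the adipokine chemerin and the retinol carrier, and the prostaglandin receptor Ptgfr had no read. Taking 3 reads over all gCap cells as the floor, they were at least 13601-fold, 11714-fold and 5193-fold lower than in Mural wells. Without Mural3 these bounds were 8169, 6046 and 1819, and Ptgfr was then read in too few Mural wells for a call. The endothelin receptor Ednra, the counterpart of Ednrb on contractile cells, had 1 read in gCap cells and was at 317, 222 and 155 CPM in the Mural sets. The alarmin Il33 was at 0.158 CPM in gCap cells, against 109, 160.4 and 316 CPM in the Mural sets.

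Among themselves, gCap cells differed most, relative to genes of like mean, in Cd74, Scn7a and Clec14a. Spread was taken as the SD of log2(CPM + 10) over the 478 cells, relative to genes of like mean, among genes read in at least 50% of cells; this measure was added after the data were seen. Cd74 had the largest relative spread over all cells, with an SD of 3.51, and ranked 6, 1 and 2 of 446 genes within EC1, EC2 and EC3. Its quartiles over cells were 7.45, 889 and 3002 CPM, with a highest cell of 15766 CPM. Gja4 had quartiles of 0, 525 and 1638 CPM, and H2-Ab1 of 7.40, 679 and 1861 CPM. For each of these genes the lower quartile was at or near 0, and all 3 were read in fewer cells than the other 7 of the 10 largest. Within EC1, EC2 and EC3 Gja4 ranked 17, 12 and 12, and H2-Ab1 74, 15 and 11. The rule left out wells with Gja4 and another arterial gene, so the spread of Gja4 depends in part on that choice. The other 7 were the sodium channel Scn7a (quartiles 445, 1739 and 3333 CPM), the lectin Clec14a, Hpgd, the caveolin Cav1, Tm4sf1, Sema3c and the phospholipid transfer protein Pltp, each read in at least 87.4% of cells. Of the 10 names, 7, 8 and 8 were among the 10 largest within EC1, EC2 and EC3, and Pltp ranked 353, 7 and 3. Cd74 and H2-Ab1 varied together, with a Spearman rho of 0.54 over 478 cells that share library preparation and differ in depth. Both genes differ in level between the column sets, and within EC1, EC2 and EC3 the rho was 0.60, 0.44 and 0.39. The next of the 45 pairs among these 10 genes was Scn7a with Sema3c, at 0.25. Cldn5, Malat1, Actb, H2-D1 and Egfl7 were among the 10 genes of least relative spread, Cldn5 with an SD of 0.81 and Malat1 of 0.77. The cells were sorted by a Cldn5 reporter, so the spread of Cldn5 is not free of that choice.

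The ratio of variance to mean of CPM, the measure chosen first, named other genes. Its top was Casp2, Slc41a1 and Adprm, where 1 cell held 35.0%, 52.9% and 52.2% of all gCap reads, so that it ranked single wells. The 10 names by either measure had none in common.

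**Figure D4:**
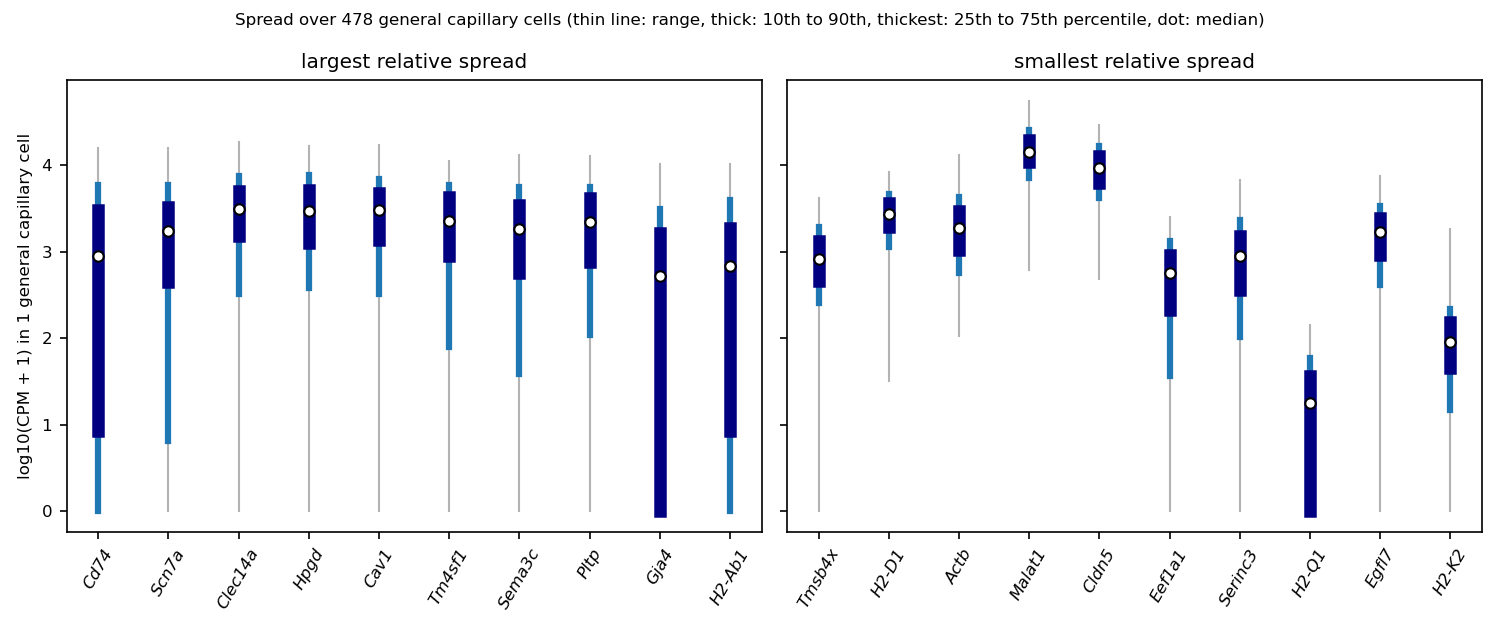
Spread of CPM over the 478 gCap cells for the 10 genes of largest and the 10 of smallest relative spread, drawn as log10(CPM + 1), with thin lines for the range, thicker bars for the 10th to 90th and 25th to 75th percentiles and dots for the median. All 10 genes of largest spread reach down to cells without a read, and of these Cd74, Gja4 and H2-Ab1 have a lower quartile at or near 0, while Cldn5 and Malat1 keep to a narrow range. The rule used Gja4, and the cells were sorted by a Cldn5 reporter.

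The column sets also differed within gCap cells, by 202 of 1816 genes (11.1%) at a fold of at least 2 between the highest and lowest set. By pairs, 67 genes (3.86%) differed between EC1 and EC2, 102 (5.82%) between EC1 and EC3 and 79 (4.55%) between EC2 and EC3. EC1 was highest for 62 of the 202 genes, EC2 for 60 and EC3 for 80. What separates the sets is not given in the labels, so animal, plate and day cannot be told apart. The MHC class II genes were highest in EC1 and lowest in EC3. In EC1, EC2 and EC3 Cd74 was at 3544, 1756 and 894 CPM in gCap cells and 2209, 967 and 681 CPM in other endothelial wells, and was read in 90.8%, 74.3% and 59.9% of gCap cells. H2-Eb1 was at 954, 414 and 325 CPM in gCap cells and 568, 308 and 207 CPM in other endothelial wells. For both genes EC1 was the highest set in gCap cells and in the other wells alike. Timp3 was instead lowest in EC1 and highest in EC3, at 72.6, 179 and 239.6 CPM in gCap cells and 522, 680.2 and 1106 CPM in other endothelial wells. The largest fold was in Prph, the intermediate filament peripherin, at 2.24, 69.2 and 48.8 CPM in gCap cells and 0, 125 and 23.8 CPM in other endothelial wells. Etnk1, an ethanolamine kinase, was at 37.6, 197 and 171 CPM in gCap cells and 121, 192 and 158 CPM in other endothelial wells. Of the 202 genes, 128 (63.4%) were higher in the same set in the other endothelial wells, beside 1081 of all 1816 genes (59.5%), and 22 also passed the fold there.

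**Figure D5:**
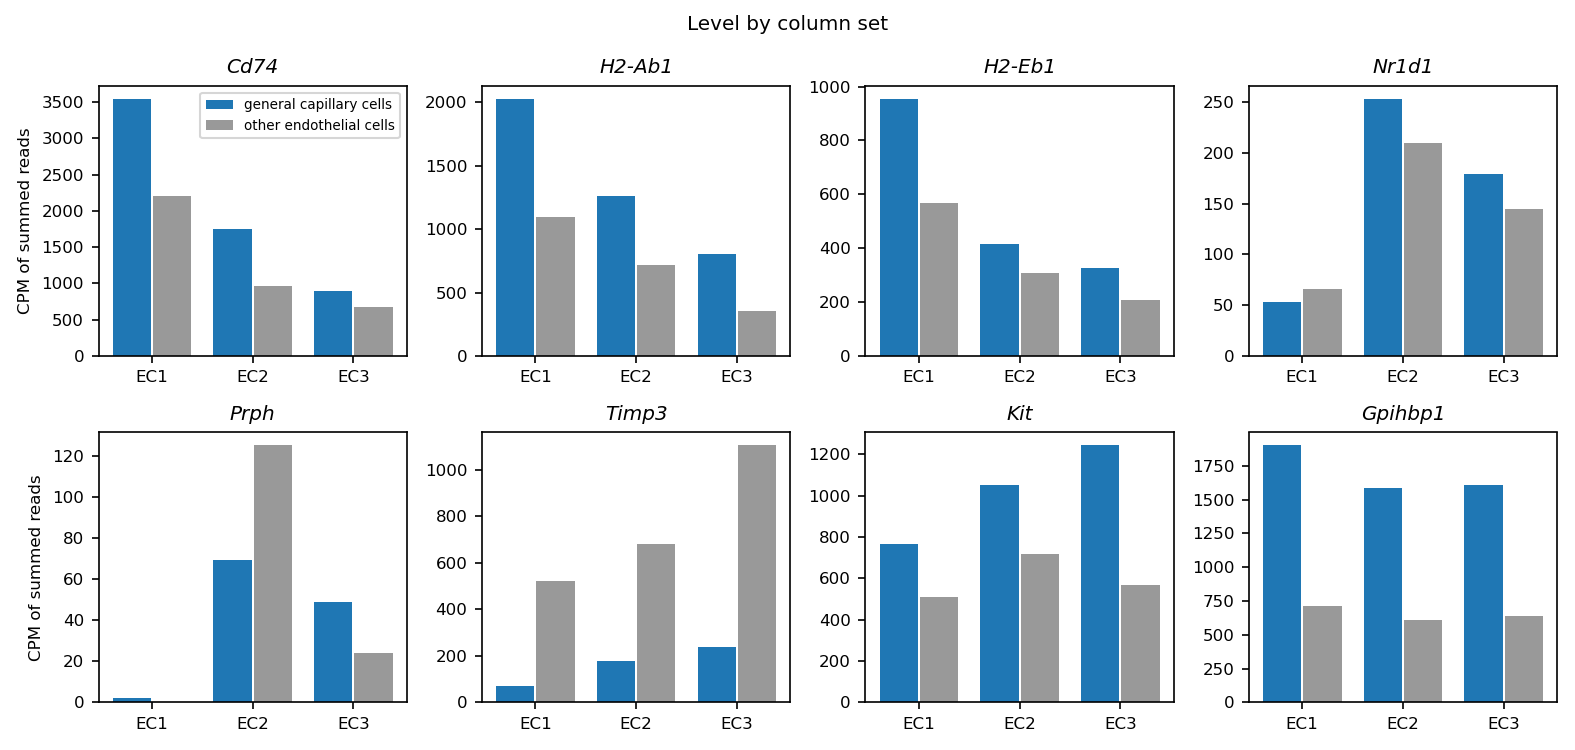
CPM of summed reads of 8 genes in the column sets EC1, EC2 and EC3, in gCap cells and in other endothelial wells. Cd74, H2-Ab1 and H2-Eb1 are highest in EC1 in both classes, Timp3 is highest in EC3, and Kit is above the other wells in every set. Gpihbp1 is above them too, but the rule used it to choose gCap cells.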

How the data were processed

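Single cells of adult mouse lung were sorted by fluorescent reporters and sequenced by SMART-seq2, per the labels' protocols. The deposited table of read counts holds 21947 genes and a reporter row for 1504 cells; reads were aligned with STAR 2.4.2a to mm10, per the submitters' processing notes, and the counting program, annotation and cell filter are not given in the sources used here. A further deposited table held a score per gene and cell, and all its values agreed, to within 1, with reads scaled to 500000 a cell; it served as an alternative. Each endothelial or Mural column was matched to its class by name, and which well belongs to which labelled sample was not used.

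CPM was computed from each cell's total, and classes were cut by the fixed limits given above. Reads were summed over the cells of a class, a gene was compared at 50 CPM or more with a read in at least 25% of cells thinned to 50000 reads, in classes of at least 20 cells, and was called at a fold of 2 (4 against Mural wells), with fewer than 3 reads set to 3. Intervals (exact Poisson, Clopper-Pearson and exact conditional for ratios, 95%) describe counting error alone, since reads without molecular identifiers repeat the same molecules. The comparison was first tested on simulated reads, with 200 well-expressed genes changed 4-fold, or 8-fold for Mural wells. It recovered 199 of 200 changes against Ednrb-high cells and all 200 against arterial-gene cells and Mural wells. The mean error of the log2 fold was 0.16, 0.12 and 0.58. Column sets were not simulated and the changes were larger than the calling folds, so calls near the limits or driven by 1 set were not tested.

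Named genes were the 10 largest folds each way, up to 4 genes a list, the markers, the rule's genes, and the 10 most variable and most abundant genes. Not all of them are given in the text. Kdr, Kitl, Tek, Nrp1, Emp2, Igfbp7, Prx, Foxo1, Foxp1, Icam2 and Tie1 against Ednrb-high cells, Cd36, Calcrl, Lama5, Timp3 and Sparc against Mural wells, and genes given as lying within the fold were named after their values were seen. The cells, the 18 gene lists and the marker lists were chosen with earlier results of these data known. Ribosomal protein, mitochondrial and predicted genes and Rn45s were left out of this choice. Alternatives were TMM and median-ratio factors, equal weight per cell, other filters and limits, and leaving out each column set or the doublet-like cells. Python 3.11.15 with numpy 2.4.6, pandas 2.3.3, scipy 1.17.1 and matplotlib 3.10.9 was used. Some markers on the lists (Ccl21a, Hba-a1, Hba-a2 and Hbb-bt) were not analysed here. Of 13 genes looked up for promoters 7 were matched in the RefSeq table, and 20785 genes had a place in the annotation.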

Additional observations from a re-analysis of the deposited data

How the results depend on the processing

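No paired analysis was possible because the column sets bear no animal or replicate in the labels, and each class counts as 1 sample. EC1, EC2 and EC3 each hold both gCap cells and other endothelial wells, so a description within sets was possible. For many genes CPM of both classes is given side by side by set. Without the filter on the share of cells with a read, the called genes rose in number to 436 against other endothelial wells (77 with it), 1306 against Ednrb-high cells (529) and 596 against arterial-gene cells (31). With each column set left out in turn, the counts lay between 62 and 129 against other endothelial wells, between 591 and 614 against Ednrb-high cells, between 69 and 97 against arterial-gene cells and between 1002 and 1039 against Mural wells (1008). TMM and median-ratio factors lowered all folds against Ednrb-high cells by 0.26 and 0.30 on the log2 scale, which ended the call of 6 of 86 named genes. Leaving out EC3 ended the call of 9 of the 86, EC1 of 5 and EC2 of 3; none of the 86 changed direction under any alternative.

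Among gCap cells of the column sets, the pairs, compared after the data were seen, gave 67, 102 and 79 genes, and the check in other endothelial wells, also added then, left 22 of 202. Of the 10 genes with the largest ratio of variance to mean, between 2 and 8 were named again with 1 set left out, and 0 by the SD of log2 values. The number of gCap cells was 465 with the Gpihbp1 and Cd93 limits doubled, 460 with Sftpc plus Scgb1a1 below 2000 CPM and 477 on the deposited normalized scores. Without the epithelial-rich wells, an alternative added after the data were seen, the log2 folds against other endothelial wells were 0.43 for Sftpc and 0.13 for Scgb1a1, so both changed direction. Ednrb-high cells number 18, 28 and 39 by set, which limits every fold against them. gCap cells number 152, 179 and 147, so summed reads weight the sets differently in these classes. A pooled fold can therefore differ from the folds within the sets, which are not given.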

Other observations

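Some clock genes, picked after their values were seen, had their lowest CPM in the same column set in gCap cells and in other endothelial wells. In EC1, EC2 and EC3 the clock repressor Nr1d1 was at 52.9, 253 and 179 CPM in gCap cells, and at 66.1, 210.0 and 145 CPM in other endothelial wells. The clock output factor Tef was at 1.15, 68.7 and 41.2 CPM in gCap cells, and at 28.3, 82.2 and 65.5 CPM in other endothelial wells. Dbp, a factor of the same family, was at 6.54, 15.9 and 15.8 CPM in gCap cells and at 5.27, 10.4 and 17.2 CPM in other endothelial wells. Dbp and Tef had a read in only 24 and 49 of 478 gCap cells and did not meet the level for comparing column sets. All 3 genes were lowest in EC1 in both classes, as were 6 of all 14 clock genes looked at. Of the 14, 10 were lowest in EC1 in gCap cells and 7 in other endothelial wells. No share of all genes lowest in EC1 stands beside these counts, so they are not read as a trait of clock genes. Some of the 14 were near the floor: Hlf, Npas2, Per2 and Cry1 had a read in 5, 7, 11 and 14 gCap cells. The core gene Clock was at 67.5, 114 and 174 CPM in gCap cells but at 86.4, 75.8 and 94.1 CPM in other endothelial wells, and its partner Arntl was at 3.80, 15.9 and 3.15 CPM in gCap cells but at 32.7, 8.40 and 27.8 CPM in other endothelial wells, highest in EC2 in gCap cells and lowest in EC2 in the others.

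The ribosomal RNA precursor Rn45s also differed by set, at 10026, 13846 and 21768 CPM in gCap cells of EC1, EC2 and EC3.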
